A study of Mus musculus with 20 samples.

Results

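Osr1, Eya1 and Wt1 are 3 transcriptional regulators of nephron progenitor cells (NPCs), the mesenchymal cells of the embryonic kidney that renew themselves at the cap of each ureteric tip and give rise to the nephrons. They were taken as the rows of the normalized count table whose identifiers the deposited comparison tables pair with these symbols: ENSMUSG00000048387 for Osr1, ENSMUSG00000025932 for Eya1 and ENSMUSG00000016458 for Wt1. They are 3 of 4316 genes with a symbol and of 31130 genes in the table, and each was measured in all 20 libraries. All 3 are paired only through the authors' list of genes that differed between low and high CHIR in control cells, so that difference is described below and not tested.

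Osr1 encodes a zinc finger factor that marks the intermediate mesoderm and the early progenitors. Eya1 encodes a transcriptional co-activator and phosphatase that works with homeodomain partners, and loss of either Osr1 or Eya1 is known to leave the embryo without kidneys. Wt1 encodes a zinc finger factor needed for survival of the metanephric mesenchyme, which is later kept at a high level in podocytes. Canonical Wnt signaling, through β-catenin, drives NPCs from self-renewal into nephron formation, and in culture a GSK3β inhibitor such as CHIR stands in for the Wnt ligand.

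In the RefSeq annotation of GRCm38.p6, Osr1 spans bases 9574442 to 9581500 of chromosome 12, Eya1 spans bases 14168953 to 14311035 of chromosome 1 and Wt1 spans bases 105126529 to 105173614 of chromosome 2. No other gene of that annotation overlaps the span of any of the 3. The antisense RNA gene Wt1os ends 18 bases before Wt1 begins, and because no strand setting is given for the counting, reads that run across this gap cannot be told apart.

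The cells were primary mouse kidney NPCs carrying Cas9-eGFP in every group, cultured, lipofected with guide RNAs and mCherry mRNA, left for 48 h for the knockout, then kept for another day in low (1.25 µM) or high (5 µM) CHIR and sorted for mCherry. CTRL cells received a guide against GFP (3 libraries at each CHIR level), β-catenin KO cells guides against Ctnnb1 (3 and 3), α-catenin KO cells guides against Ctnna1 (2 and 2) and QCKO cells guides against Cdh2, Cdh3, Cdh4 and Cdh11 together (2 and 2). Each replicate number stands for a date in the labels, shared by all groups of that date, and α-catenin KO lacks replicate 2 while QCKO lacks replicate 1. No label names the animals behind a date, so the p-values measure only the spread between these samples. The share of edited cells in a library was not measured here, and in bulk RNA fewer cells of a type and less RNA per cell cannot be told apart.

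The guides used against Ctnnb1 are shown because the largest differences between knockouts in the 3 genes are those of β-catenin KO. Each is written 5′ to 3′ with the 10 bases next to the PAM in capitals. Ctnnb1 lies at bases 120933400 to 120960507 of chromosome 9 (GRCm38.p6), and the exons are those in the guides' names. The letters listed under the last name, for exon 6, are the same as those listed for a guide to exon 3.
Ctnnb1 guide to exon 2: atgagcagcgTCAAACTGCG
Ctnnb1 guide to exon 3: agccaagcgcTGGACATTAG
Ctnnb1 guide listed for exons 3 and 6: gagattatgcAGTGTCGTGA

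Across the libraries, reads recovered from the normalized counts summed to 18124772 to 28472412. Ctnna1 was at 40.4% of the CTRL mean in low CHIR and 47.4% in high CHIR in the α-catenin KO libraries, and Cdh11 at 50.0% and 40.2% in QCKO, without overlap with CTRL, whereas Cdh2, Cdh3 and Cdh4 overlapped CTRL in QCKO. The β-catenin KO libraries differed by date. Lef1, a Wnt target, stood at 62.3 normalized counts in low CHIR in replicate 1 but at 660 and 532 in replicates 2 and 3, against 62.5 to 72.6 in CTRL. In high CHIR Lef1 stood at 93.6, 677 and 1020.0, against 948 to 1465 in CTRL, so replicate 3 lay within the CTRL range. Wnt4, the signal that drives the mesenchymal to epithelial transition, was likewise lowest in replicate 1, with 30.1, 831 and 634 normalized counts in low CHIR against 41.1 to 72.6 in CTRL, and with 252, 2387 and 1200.4 in high CHIR against 4156 to 5401 in CTRL. For this reason the comparisons of the 3 genes with β-catenin KO are also given without replicate 1, and with replicate 1 alone.

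In CTRL, Osr1 measured 1129.9, 1276 and 1187 normalized counts in low CHIR for replicates 1, 2 and 3, against 61.2, 27.8 and 55.6 in high CHIR. All 3 dates therefore moved the same way, and high CHIR left between 2.18% and 5.42% of the low CHIR level of the same date. The mean log2 difference was -4.68 ± 0.69 (SD, n = 3 dates).

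Eya1 measured 4783, 3427 and 3699 normalized counts in CTRL in low CHIR against 1153, 662 and 456 in high CHIR. The groups did not overlap, and 12.3% to 24.1% of the low CHIR level was left. The mean log2 difference was -2.48 ± 0.49 (SD, n = 3 dates).

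Wt1 measured 825, 815 and 926 normalized counts in CTRL in low CHIR against 229, 169.8 and 237 in high CHIR, so that 20.8% to 27.8% was left. Its mean log2 difference was -2.02 ± 0.21 (SD, n = 3 dates). Of all 16516 genes tested, 5.82% were called lower in high CHIR in CTRL, but nothing is read from this share, since the authors' list for the same comparison gave the 3 genes their symbols.

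**Figure D1:**
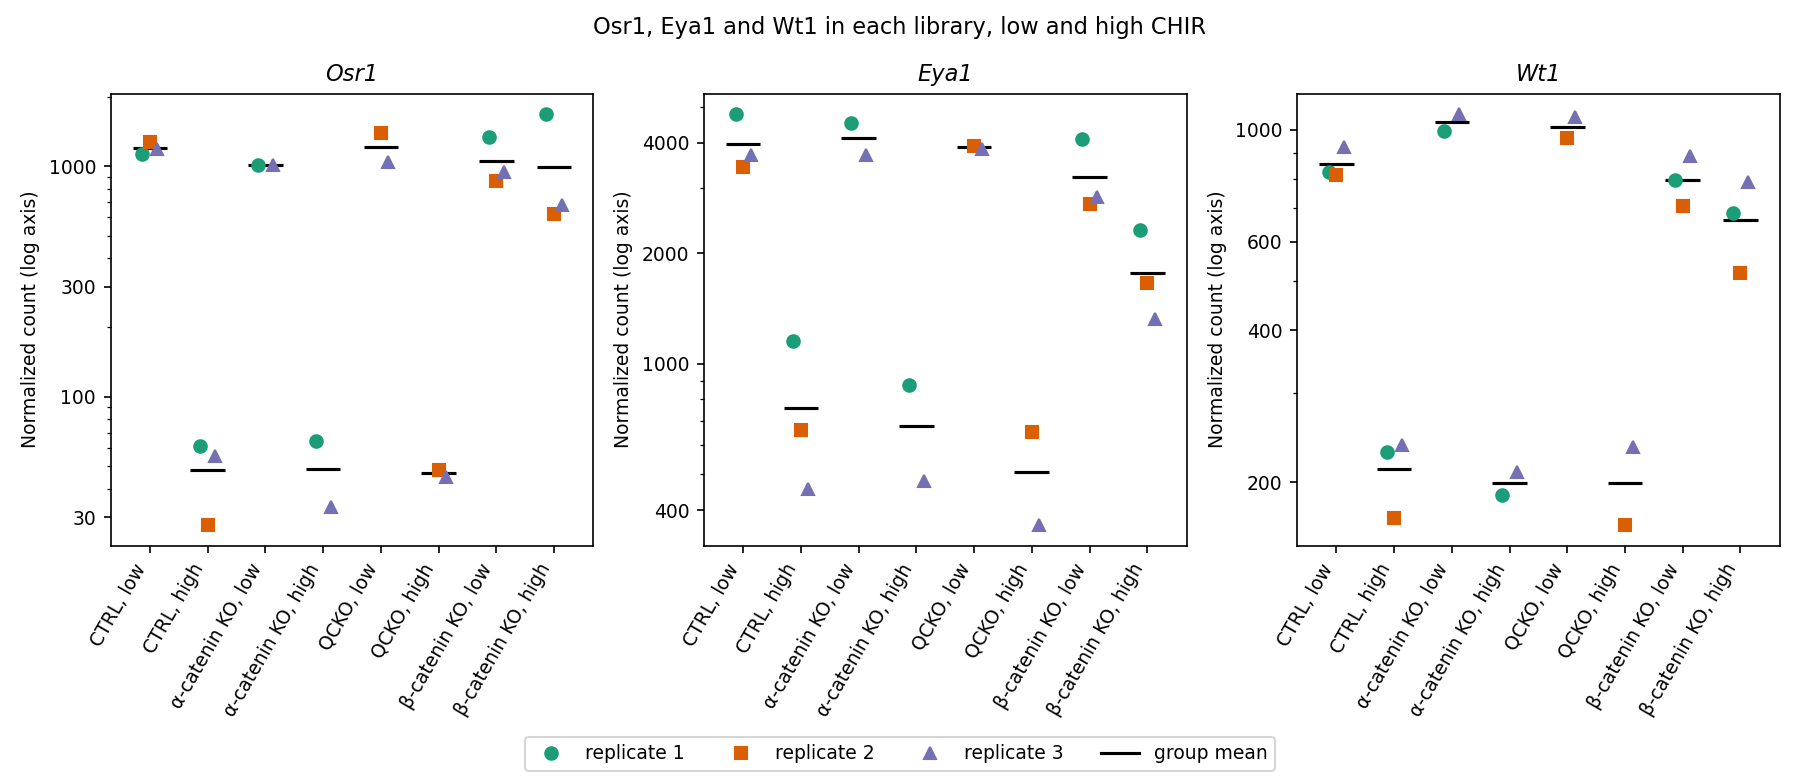
Normalized counts of Osr1, Eya1 and Wt1 in each of the 20 libraries (vertical log axis, different for each gene), by knockout and CHIR level. Points are libraries, marked by replicate number (label date), and bars are group means. Outside β-catenin KO all high CHIR libraries lie below all low CHIR libraries for each gene, whereas in β-catenin KO the high CHIR libraries stay near the low CHIR level for Osr1 and Wt1 and lie in between for Eya1. The share of all genes that separate in this way was not counted.

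To ask whether the fall of the 3 regulators needs the cadherin and α-catenin adhesion complex, the same difference was tested in α-catenin KO and in QCKO, whose libraries did not enter the list that gave the genes their symbols, although the genes were chosen with earlier results of these data known. All 3 genes were called lower in high CHIR in both knockouts. The share of all 16516 genes called lower was 1.99% for α-catenin KO and 2.31% for QCKO. These shares depend on single libraries, since the number of genes called in either direction went from 725 in α-catenin KO to 281 to 496 on leaving out any 1 of its libraries, and from 814 in QCKO to 368 to 399.

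In α-catenin KO, Osr1 measured 1012 and 1017 normalized counts in low CHIR (replicates 1 and 3) against 64.4 and 33.3 in high CHIR. In QCKO it measured 1393 and 1039 in low CHIR (replicates 2 and 3) against 48.3 and 44.9 in high CHIR. No high CHIR library of either knockout came near a low CHIR library. The limma log2 fold change was -4.42 ± 0.37 (SE) in α-catenin KO (adjusted p = 2.52e-05) and -4.66 ± 0.37 in QCKO (adjusted p = 1.67e-05). Osr1 had only 26 to 71 reads in the 7 high CHIR libraries outside β-catenin KO, where counting alone gives an SD of 11.9% to 19.6%. Such counting errors leave out the variation added by amplification.

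Eya1 measured 4534 and 3704 normalized counts in low CHIR against 873 and 481 in high CHIR in α-catenin KO. In QCKO it measured 3926 and 3837 in low CHIR against 653 and 364 in high CHIR. Replicate 3 was the lower library of each high CHIR pair. The log2 fold change was -2.66 ± 0.41 (SE; adjusted p = 0.00211, limma) in α-catenin KO and -2.99 ± 0.41 in QCKO (adjusted p = 0.000791).

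In α-catenin KO, Wt1 measured 995 and 1074 normalized counts in low CHIR against 188 and 209.8 in high CHIR. In QCKO it measured 964 and 1061.5 in low CHIR against 164 and 235 in high CHIR. The per-date log2 differences of Wt1 in α-catenin KO were -2.40 and -2.35. The log2 fold change was -2.37 ± 0.23 (SE; adjusted p = 6.92e-05, limma) in α-catenin KO and -2.36 ± 0.23 (adjusted p = 6.75e-05) in QCKO.

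The 3 genes did not fall to the same extent. In all 4 pairs of α-catenin KO and QCKO libraries of the same date, the log2 difference of Osr1 was more negative than that of Eya1, by 1.11 to 2.24, and than that of Wt1, by 1.56 to 2.54. Eya1 and Wt1 lay closer together, with Eya1 more negative in 3 of 4 pairs (from -1.22 to 0.022 on the log2 scale, Eya1 minus Wt1). These differences between genes are given as a description and were not tested.

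The comparisons of α-catenin KO and QCKO with CTRL use the CTRL libraries that gave the 3 genes their symbols, so for these genes they are descriptions, with intervals that show the spread of the fit. In high CHIR, the log2 fold change against CTRL in α-catenin KO was 0.022 for Osr1 (95% interval -0.72 to 0.76), -0.12 for Eya1 (-0.92 to 0.68) and -0.077 for Wt1 (-0.54 to 0.38). In QCKO it was 0.028 for Osr1 (-0.71 to 0.77), -0.53 for Eya1 (-1.33 to 0.27) and -0.094 for Wt1 (-0.55 to 0.37). Differences as large as these bounds lie within the intervals. The sign of the Osr1 values near 0 changed with the processing. Set against CTRL of the same date, Eya1 in QCKO was at 98.6% in replicate 2 and at 79.8% in replicate 3.

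Across all genes, limma called 0 of 16516 (0%) in both of these high CHIR comparisons. At an unadjusted p under 0.05 the counts were 928 for α-catenin KO and 1444 for QCKO. edgeR called 0 and 0 genes, and DESeq2 4 and 7. The difference of the CHIR response itself (knockout minus CTRL), a description for the 3 genes, had log2 values of 0.26, -0.18 and -0.35 in α-catenin KO and 0.020, -0.51 and -0.34 in QCKO for Osr1, Eya1 and Wt1 (0% of all genes called in both by limma, edgeR and DESeq2, with 258 and 213 genes at an unadjusted limma p under 0.05). Set against CTRL of the same date, the log2 difference of Wt1 was more negative in all 4 pairs, with -2.40 against -1.84 and -2.35 against -1.96 in α-catenin KO, and -2.55 against -2.26 and -2.17 against -1.96 in QCKO. The CTRL pair of replicate 3 enters 2 of the 4 pairs. That of Eya1 was more negative in 3 of 4 pairs, all but replicate 3 of α-catenin KO, and that of Osr1 in replicate 3 of both knockouts only.

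In low CHIR the share of all genes called was 0% in α-catenin KO (109 genes at an unadjusted p under 0.05, with edgeR calling 0 and DESeq2 1) and 0.00605% in QCKO, which is 1 gene. Wt1 lay above CTRL on each date, at 116% and 121% of the CTRL library in α-catenin KO and at 115% and 118% in QCKO. Its log2 fold changes were 0.28 (95% interval -0.19 to 0.74) and 0.24 (-0.22 to 0.71). Osr1 (-0.24 and 0.0088) and Eya1 (0.061 and -0.017) showed no common direction.

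**Figure D2:**
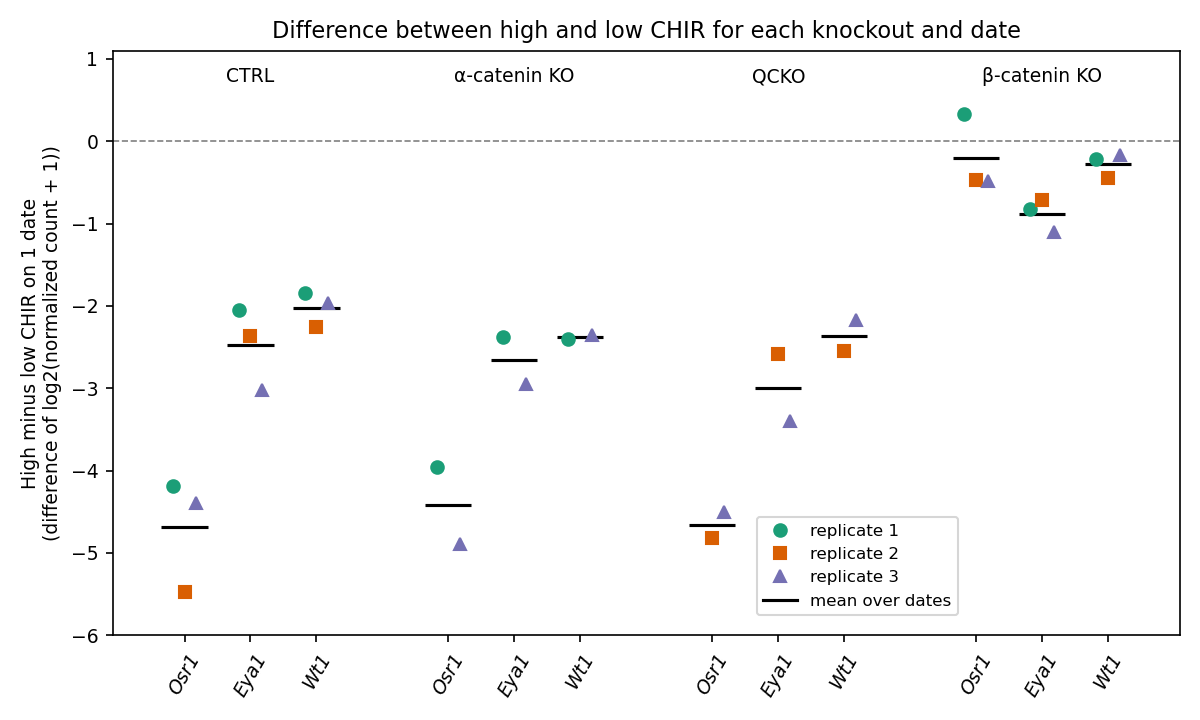
Difference between high and low CHIR of the same knockout and label date (vertical axis, difference of log2(normalized count + 1)) for Osr1, Eya1 and Wt1. Points are dates, bars their mean, and the dashed line is no difference. The points of CTRL, α-catenin KO and QCKO lie between -5.47 and -1.84, and those of β-catenin KO between -1.10 and 0.33.

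Cells given guides against Ctnnb1, the gene of the Wnt effector β-catenin, were used to ask whether the 3 regulators also fall in high CHIR there. The level of Ctnnb1 was not analysed, so its loss was not checked in these libraries. Because the CTRL values of the 3 genes gave them their symbols, β-catenin KO is set against CTRL as a description with no test, and the tests were made against the mean of α-catenin KO and QCKO, which holds no CTRL library. The genes were chosen with earlier results of all these libraries known. In high CHIR all 3 libraries of β-catenin KO lay above all 3 of CTRL for each gene. For this and the other separations of libraries given for the 3 genes, the share of all genes was not counted, so they are descriptions. Against CTRL 7.67% of 16691 genes were called higher in high CHIR and 0.533% for the response to CHIR, and nothing is read from these shares. Against the mean of α-catenin KO and QCKO all 3 genes were called higher in high CHIR, where 4.06% of genes were, and for the response, where 0.677% of genes were. Replicate 1 alone leaves a single β-catenin KO library at each CHIR level, so its values are given with no test. Values with and without replicate 1 set the dates kept against all dates of the other groups, so they are not matched by date. Leaving out 1 library of α-catenin KO or QCKO likewise leaves 1, which is then assumed to vary like the other groups.

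In β-catenin KO, Osr1 measured 1343, 863 and 946 normalized counts in low CHIR against 1686, 624 and 680.0 in high CHIR for replicates 1, 2 and 3. Replicate 1 in high CHIR was above every other library of the series, whereas replicates 2 and 3 in high CHIR were below all 3 low CHIR libraries. The level stood at 125% of the low CHIR library of the same date in replicate 1 and at 72.3% and 71.8% in replicates 2 and 3. In high CHIR, Osr1 was 2753%, 2247% and 1222% of the CTRL library of the same date.

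Against the mean of α-catenin KO and QCKO in high CHIR, the log2 fold change of Osr1 was 4.24 ± 0.34 (SE; adjusted p = 2.14e-06, limma). It was 3.78 and called without replicate 1, and the value with replicate 1 alone was 5.15. High against low CHIR within β-catenin KO gave -0.21 (95% interval -0.97 to 0.56; adjusted p = 0.999), a value that became 0.33 with replicate 1 alone and -0.47 without it. The response to CHIR differed from the mean response of α-catenin KO and QCKO by 4.34 ± 0.47 (adjusted p = 0.000249), and by 4.07, also called, without replicate 1. With replicate 1 alone the value was 4.87. Against CTRL the values were 4.26 ± 0.36 in high CHIR and 4.48 ± 0.51 for the response.

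Wt1 measured 796, 705 and 886 normalized counts in β-catenin KO in low CHIR against 684, 519 and 788 in high CHIR. Each high CHIR library was below the low CHIR library of its date, at 85.9%, 73.6% and 88.8% of it, but the groups overlapped. Against CTRL of the same date in high CHIR it was at 299%, 305% and 333%, the narrowest range of the 3 genes.

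Against the mean of α-catenin KO and QCKO in high CHIR, the log2 fold change of Wt1 was 1.72 ± 0.18 (SE; adjusted p = 2.57e-05, limma), and 1.69, also called, without replicate 1. With replicate 1 alone the value was 1.79. High against low CHIR within β-catenin KO gave -0.28 (95% interval -0.68 to 0.12; adjusted p = 0.999), with -0.31 without replicate 1 and -0.22 with it alone. The response to CHIR differed from the mean response of α-catenin KO and QCKO by 2.09 ± 0.25 (adjusted p = 0.000550), and by 2.06, also called, without replicate 1. With replicate 1 alone the value was 2.15. Against CTRL the values were 1.64 ± 0.19 in high CHIR and 1.74 ± 0.27 for the response. Clic5, the only podocyte marker of 8 with an identifier here, was called higher in high CHIR in β-catenin KO than in the mean of α-catenin KO and QCKO, as Wt1 was (3.22 on the log2 scale, adjusted p = 0.00292, limma). It stood at 89.8 to 155 normalized counts in β-catenin KO in high CHIR and at 8.54 to 18.8 in CTRL, against 47.0 to 79.5 and 21.4 to 96.3 in low CHIR. Within β-catenin KO it lay above its low CHIR libraries in high CHIR (0.87, not called), whereas Wt1 lay below on each date. Its part in the Wt1 values was not tested.

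Eya1 in β-catenin KO measured 4093, 2729 and 2841 normalized counts in low CHIR against 2308, 1658 and 1327 in high CHIR. The high CHIR libraries lay below all low CHIR libraries and above all high CHIR libraries of the other groups, a separation not counted over all genes. On the 3 dates high CHIR left 56.4%, 60.8% and 46.7% of the low CHIR level.

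The log2 difference of Eya1 within β-catenin KO was -0.88 ± 0.32 (SE; 95% interval -1.57 to -0.19), with an unadjusted p of 0.0153 in limma but an adjusted p of 0.964. It was -0.91 without replicate 1 and -0.83 with it alone. With the label date as a block the adjusted p was 0.0953. In this comparison 3 of 16691 genes (0.018%) were called, none of them among the 3 regulators. An unadjusted limma p under 0.05 was reached by 741 of the 16691 genes. On each date the difference of Eya1 was more negative than that of Wt1, by 0.28 to 0.93, and than that of Osr1, by 0.25 to 1.15, which is a description and was not tested.

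In high CHIR, Eya1 was at 200.1%, 250.4% and 291% of the CTRL library of the same date. Against the mean of α-catenin KO and QCKO, its log2 fold change in high CHIR was 1.61 ± 0.30 (SE; adjusted p = 0.00444, limma), and 1.40, also called, without replicate 1. With replicate 1 alone the value was 2.04, although replicate 1 was the lowest of the 3 dates against CTRL of the same date. With the label date as a block the log2 fold change was 1.53 and called.

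The response of Eya1 to CHIR differed from the mean response of α-catenin KO and QCKO by 1.94 ± 0.43 (adjusted p = 0.0409, limma). This call was lost in 13 of 24 alternatives. It was lost without β-catenin KO replicate 1 (1.92, adjusted p = 0.0706), with that replicate alone (a value of 2.0 from a single library at each level), and on leaving out any single library of these groups other than replicate 1 of β-catenin KO in low CHIR, replicate 1 of α-catenin KO in high CHIR and replicate 2 of QCKO in high CHIR (values of 1.73 to 2.13, adjusted p of 0.0511 to 0.128). Against CTRL the values were 1.29 ± 0.32 in high CHIR and 1.60 ± 0.46 for the response. For Osr1 and Wt1 the calls against the mean of α-catenin KO and QCKO held in high CHIR and for the response, and for Eya1 in high CHIR, in each alternative with more than 1 library of β-catenin KO at each level.

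In low CHIR the values of β-catenin KO against CTRL are again a description, and nothing is read from the 0.0659% of all genes called in that comparison. Eya1 lay below CTRL on each of the 3 dates, at 85.6%, 79.6% and 76.8%, with a log2 fold change of -0.31. Wt1 was at 96.6%, 86.5% and 95.7% (-0.11). Osr1 was at 119% in replicate 1 and at 67.6% and 79.8% in replicates 2 and 3 (-0.21).

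**Figure D3:**
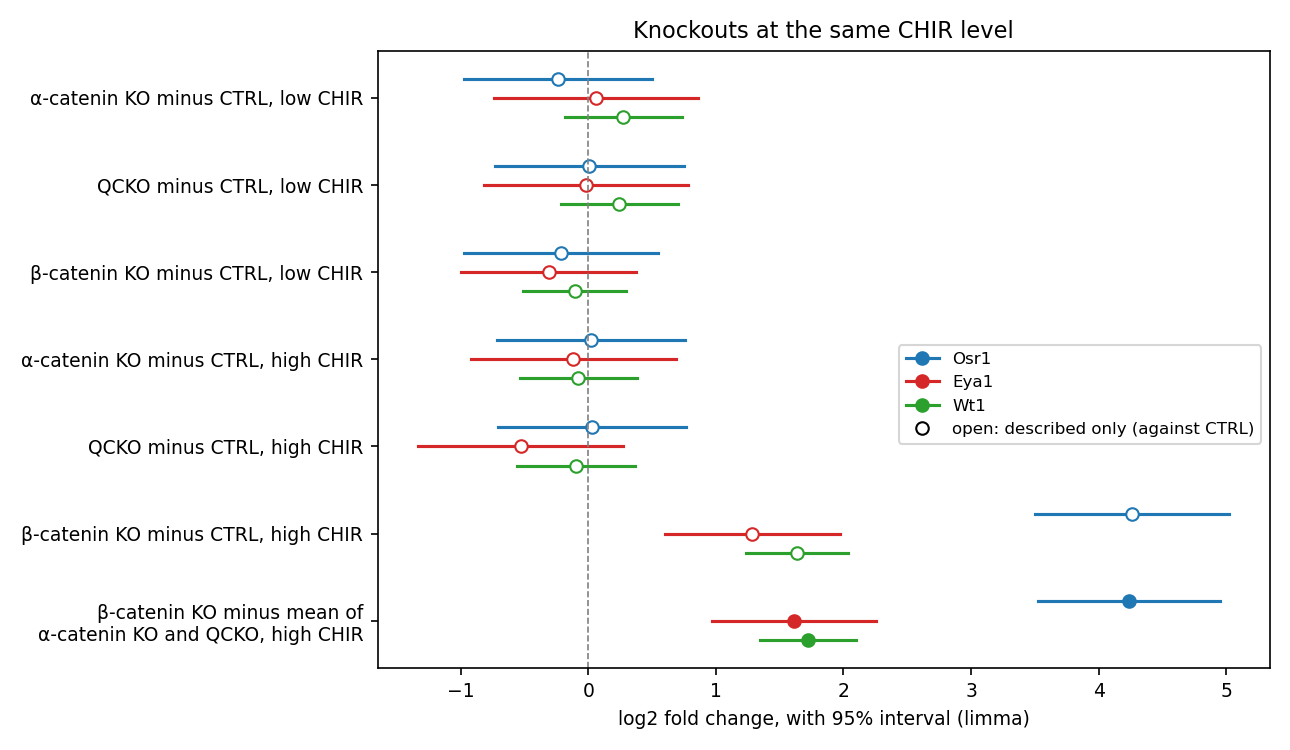
Log2 fold change of each knockout against CTRL at the same CHIR level, and of β-catenin KO against the mean of α-catenin KO and QCKO (horizontal axis), for Osr1, Eya1 and Wt1, with 95% intervals from limma. Open points, all against CTRL, are descriptions, and filled points passed both limits, an adjusted p below 0.05 and a log2 fold change of more than 0.5 in either direction. In high CHIR the β-catenin KO points lie at 4.26, 1.29 and 1.64 against CTRL and at 4.24, 1.61 and 1.72 against the other knockouts.

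Ordered by group mean, Osr1 was highest in QCKO in low CHIR (1216 ± 250.2 normalized counts, SD, n = 2), followed by CTRL (1197 ± 73.6, n = 3), β-catenin KO (1051 ± 257, n = 3) and α-catenin KO in low CHIR (1014 ± 3.52, n = 2), and β-catenin KO in high CHIR (997 ± 597, n = 3). Each of these groups overlapped the next in its range. The remaining high CHIR groups followed after a gap, at 48.8 ± 22 in α-catenin KO, 48.2 ± 17.9 in CTRL and 46.6 ± 2.41 in QCKO, and overlapped each other.

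Eya1 was highest in α-catenin KO in low CHIR (4119 ± 587 normalized counts), then CTRL (3969.9 ± 717), QCKO (3882 ± 63.0) and β-catenin KO in low CHIR (3221 ± 758), all with overlapping neighbors. β-catenin KO in high CHIR (1764 ± 499) overlapped neither neighbor in this order. It was followed by CTRL (757 ± 358), α-catenin KO (677 ± 277) and QCKO (508 ± 205) in high CHIR.

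Wt1 was highest in α-catenin KO (1034 ± 56.5 normalized counts) and QCKO in low CHIR (1013 ± 69.1), and the latter did not overlap the next group, CTRL in low CHIR (855 ± 61.7). β-catenin KO in low CHIR (796 ± 90.9) and in high CHIR (663 ± 136) came next and overlapped. The lowest levels were in high CHIR in CTRL (212 ± 36.6), QCKO (199 ± 49.9) and α-catenin KO (199 ± 15.3), where the ranges overlapped.

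Of the transcription factors and cofactors of the progenitor list other than the 3 genes, only 12 of 28 have an identifier here, and these are genes that passed a threshold in one of the authors' tables, so their counts are no independent support. Of the 12, 9 were called lower in high CHIR in α-catenin KO (median log2 fold change -1.46, against 0.012 for all genes tested) and 9 in QCKO (-1.69, against -0.0046), beside 1.99% and 2.31% of all genes. They include Six2, the self-renewal factor of NPCs, at -4.77 and -5.23, Cited1, a marker of uninduced progenitors, at -3.54 and -3.35, and Meox2, a homeobox factor, at -6.25 and -6.92. The count fell to 5 without α-catenin KO low CHIR replicate 1 and to 4 without α-catenin KO high CHIR replicate 3, and to 5 in QCKO without either replicate 3 library.

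Pax2, which stays on in the forming nephron, and Dach1, a transcriptional corepressor, went the other way in α-catenin KO, with log2 fold changes of 1.69 (adjusted p = 0.0237, limma) and 2.20 (adjusted p = 0.00460). In QCKO Dach1 was called higher at 2.32 and Pax2 was not called at 1.33 (adjusted p = 0.0715). These 2 calls in α-catenin KO were both lost without α-catenin KO low CHIR replicate 1 or high CHIR replicate 3, and the count was 1 without either of the other 2 α-catenin KO libraries.

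In β-catenin KO 0 of the 12 were called between low and high CHIR by limma (median -0.37, with 0.018% of all genes called), 0 by edgeR, 1 by DESeq2 and 1 with the label date as a block. Cited1 had the most negative value, -1.64 (adjusted p = 0.200), and 5 of the 12 (Cited1, Hoxc10, Six2, Hoxa10 and Tcf21) had an unadjusted limma p under 0.05, as Eya1 did. The same limit was passed by 741 of all 16691 genes. Against the mean of α-catenin KO and QCKO in high CHIR 7 of 12 were called higher in β-catenin KO (4.06% of all genes), among them Six2 (3.63), Meox2 (5.84) and Foxc2 (3.97), and 1, Pax2, lower (-1.67). The higher count was 4 without β-catenin KO high CHIR replicate 3 or α-catenin KO high CHIR replicate 3. The Pax2 call was lost without β-catenin KO high CHIR replicate 1, α-catenin KO high CHIR replicate 3 or either QCKO high CHIR library, and 2 were called lower with the label date as a block. The responses of Six2 (4.13), Meox2 (5.64) and Foxc2 (3.98) differed from the mean response of α-catenin KO and QCKO, which is 3 of 12 (0.677% of all genes), 5 with only the groups compared, 8 with the label date as a block, 7 with DESeq2 and 6 when replicate 2 of β-catenin KO in high CHIR is left out.

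**Figure D4:**
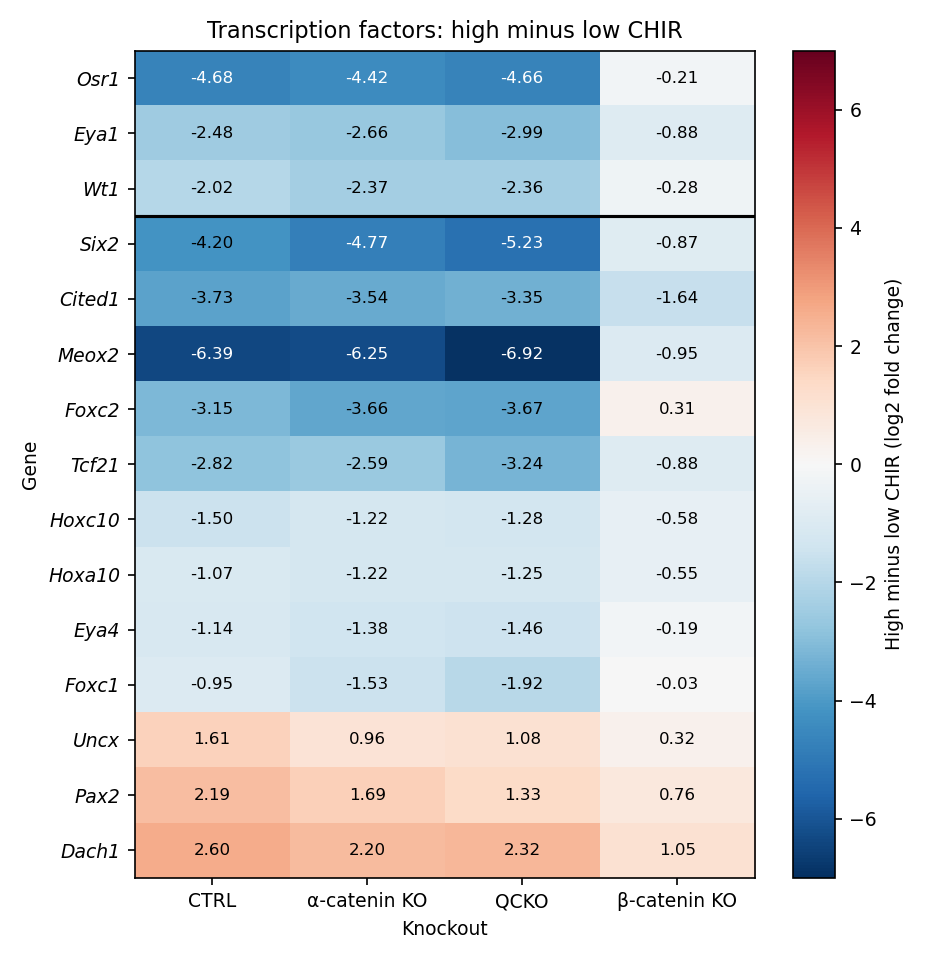
Log2 fold change of high against low CHIR in each knockout and CTRL (columns) for Osr1, Eya1 and Wt1 (above the line) and the other 12 progenitor transcription factors and cofactors with an identifier (below). Blue is lower and red higher in high CHIR, and the CTRL column is a description with no test. In β-catenin KO all values lie between -1.64 and 1.05, whereas elsewhere they reach -6.92.

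Of the signals and receptors of the progenitor niche, 5 of 17 have an identifier, again genes that passed a threshold in one of the authors' tables. Of all genes, 1.99% were called lower and 2.4% higher in high CHIR in α-catenin KO, and 2.31% and 2.62% in QCKO. In α-catenin KO 3 were called lower in high CHIR, namely Bmper (-2.89), Gas1 (-2.63) and Rspo1 (-3.83), and Bmp7 was called higher (4.47). In QCKO 3 were called lower, namely Bmper (-2.91), Gas1 (-2.85) and Spry1 (-0.85), and Bmp7 again higher (3.61). In β-catenin KO limma, edgeR and DESeq2 called 0 of the 5 between low and high CHIR (0 at an unadjusted limma p under 0.05). Bmper (2.99), Gas1 (2.31) and Rspo1 (3.14) were called higher in β-catenin KO than in the mean of α-catenin KO and QCKO in high CHIR, as 4.06% of all genes were. For the response 1 of the 5 was called higher, as 0.677% of all genes were, and 4 were not called.

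Of the induction list, 11 of 17 have an identifier. In α-catenin KO 9 were called higher and 1, Hes1, lower in high CHIR, and in QCKO 8 were called higher and Hes1 lower. These too are genes that passed a threshold in one of the authors' tables, beside the same 2.4% and 2.62% of all genes called higher. Wnt4 stood at 6.21 and 5.69 and Lef1 at 4.06 and 4.33 on the log2 scale. In β-catenin KO limma called 0 of the 11, edgeR 0, DESeq2 1 and limma with the label date as a block 1, with Wnt4 at 1.82 and Lef1 at 0.52. Of all genes 0.018% were called there by limma. An unadjusted limma p under 0.05 was reached by 4 of the 11 and by 741 of all 16691 genes. Against the mean of α-catenin KO and QCKO, limma called 1 of the 11 higher and 1 lower in high CHIR, with 9 not called. For the response it called 1 higher and 0 lower, with 10 not called. Of all 16691 genes, 962 and 169 were called in either direction. Heyl, a Notch target, had a larger value in β-catenin KO than Wnt4 or Lef1. It measured 59.1, 57.0 and 221 normalized counts in low CHIR against 1489, 882 and 1232 in high CHIR, without overlap, so that its high CHIR mean was 1069% of its low CHIR mean. Its log2 fold change there was 3.68 (unadjusted p = 8.83e-05, adjusted p = 0.105 in limma, not called), against 3.67 in α-catenin KO (adjusted p = 0.0320, called), 3.23 in QCKO (adjusted p = 0.0552) and 3.30 in CTRL. In low CHIR, Lef1 and Wnt4 lay above all CTRL libraries in replicates 2 and 3 of β-catenin KO, the same dates on which Osr1 was lower than in replicate 1. Their part in the values of the 3 genes was not tested.

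For each of the 3 genes, the 5 genes with a symbol and a mean of at least 100 normalized counts that correlated best with it over the 20 libraries were found among 2868. The libraries fall into groups by CHIR level and share dates, so the points are not independent and the values are descriptions. Osr1 was most like Sncaip (Pearson r = 0.991), Meox2 (0.990), the imprinted zinc finger gene Peg3 (0.979), the scaffold gene Cask (0.977) and Crym (0.976), which encodes a thyroid hormone binding protein used as an NPC marker. In β-catenin KO the mean of these in high CHIR was 55.9% (Meox2) to 119% (Crym) of that in low CHIR, against 94.8% for Osr1 itself.

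Eya1 was most like Robo2, a receptor for Slit ligands (r = 0.978), the cytokine gene Il33 (0.970), Zadh2 (0.963), Cped1 (0.962) and B130024G19Rik (0.961). In β-catenin KO in high CHIR these kept 11.6% (Il33) to 64.7% (Zadh2) of the low CHIR mean, against 54.8% for Eya1. Wt1 was most like Rdh10, which encodes a retinol dehydrogenase (0.989), the survival gene Bcl2 (0.984), the Wnt receptor gene Fzd4 (0.984), Six2 (0.976) and the sulfatase gene Sulf2 (0.972), which kept 55.8% (Bcl2) to 89.6% (Fzd4), against 83.4% for Wt1.

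The marker lists fixed for the cells a kidney culture could hold are thinly covered by identifiers. The summed level of the 6 of 8 NPC markers with an identifier, which include the 3 genes, was 12089 to 20716 normalized counts in the low CHIR libraries, 1118 to 2215 in high CHIR outside β-catenin KO and 6931 to 13039 in β-catenin KO in high CHIR. Meis1, the only stromal marker of 10 with an identifier, was lower in high CHIR like the 3 genes, at 537 to 1094 normalized counts against 1671 to 3220 in low CHIR, and was so in β-catenin KO too, at 537 to 921 against 1671 to 2121. It was called lower in QCKO (-1.26) but not called in α-catenin KO (-0.99) or β-catenin KO (-1.34). The endothelial markers Tek and Plvap (2 of 8) summed to 266 to 453 in low CHIR and 95.1 to 431 in high CHIR, but went opposite ways. The mean of Tek in CTRL was 1.68 in low and 138 in high CHIR, and it was called higher in high CHIR in α-catenin KO (4.70, adjusted p = 0.00298, limma) and QCKO (6.71, adjusted p = 0.000206). In β-catenin KO its mean was 4.03 in low and 45.6 in high CHIR and it was not called. The mean of Plvap was 394 in low and 38.3 in high CHIR in CTRL, 385 and 50.1 in α-catenin KO (-2.90, adjusted p = 0.0536), 388 and 44.8 in QCKO (-3.08, adjusted p = 0.0360, called lower) and 284 and 153 in β-catenin KO (not called), so Plvap lay on the side of the 3 genes. The ureteric markers Wnt11, Gata3, Krt8 and Cdh1 (4 of 10) summed in high CHIR to 249.9 to 404 in CTRL, 656 to 1482 in α-catenin KO, 1109.6 to 1235 in QCKO and 288 to 615 in β-catenin KO, against 95.5 to 898, 193 to 815, 224 to 429 and 268 to 633 in low CHIR. Of these Gata3 was called higher in high CHIR in α-catenin KO (3.27, adjusted p = 0.00954) and QCKO (4.27, adjusted p = 0.00142), and Krt8 and Cdh1 were not called. No leukocyte marker (0 of 8) has an identifier. The part of other cells in the values of Osr1, Eya1 and Wt1 was not tested.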

How the data were processed

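RNA was sequenced from sorted, transfected NPCs as paired-end reads. The authors deposited 1 table of normalized counts for 31130 genes, which holds signal values, that is, reads divided by a size factor per library. The submitters' processing notes name STAR, Subread, featureCounts, Salmon and DESeq2 with the GRCm38 build, with no order; a strand setting is not given in the sources used here. Every value was a whole multiple of its library's step within 0.1 of a read, so reads were recovered, with totals of 18124772 to 28472412 per library (median 21449823). This check says little for 2 libraries whose size factor lies near 1 (replicate 2 of β-catenin KO at low CHIR, replicate 3 of α-catenin KO at high CHIR). The deposited comparison tables also hold the authors' fold ratios, p-values and log2 values, of which none was used; they served only to pair 4316 identifiers with symbols.

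The log2(normalized count + 1) values were tested with limma 3.58.1 in R 4.3.3 (trend, empirical Bayes) for genes with a mean of at least 10, over 14 libraries, or all 20 where β-catenin KO entered. A gene was called at a Benjamini-Hochberg adjusted p under 0.05 over all genes tested and an absolute log2 fold change over 0.5. The normalized values are no counts, so DESeq2 (1.42.0), which the study names, and edgeR (4.0.16) were run on the recovered reads as alternatives, beside no filter, a pseudocount of 5, quantile normalization, a fold limit of 1, only the groups compared, a replicate block and leaving out each library. β-catenin KO was tested against the mean of α-catenin KO and QCKO, since CTRL values gave the 3 members their symbols; the response in that comparison was added after seeing the data. The code was tested on simulated data. Replicate numbers stand for label dates shared across groups, which is where the pairing comes from: deviations of low and high CHIR libraries of the same knockout and date from their group means correlated across genes at 0.0474 to 0.721 in 10 pairs. These pairs are not all independent. With 2 libraries a group, both pairs of α-catenin KO must give the same value (0.461), as must both of QCKO (0.278).

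The named genes are the 3 members, the 5 genes most correlated with each over 20 libraries (symbol known, mean of at least 100), and the lists described (nephron progenitor transcription factors, niche signals and receptors, induction genes, cell type markers). The members and lists were chosen with earlier results of these data known. Ctnnb1 has no symbol pair here, and its level was not analysed.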

Additional observations from a re-analysis of the deposited data

Results flagged for a closer look

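The response to CHIR differed between β-catenin KO and the mean of α-catenin KO and QCKO for Osr1, by 4.34 on the log2 scale (adjusted p = 0.000249 for the interaction term in limma), for Wt1, by 2.09 (adjusted p = 0.000550), and for Eya1, by 1.94 (adjusted p = 0.0409). Of all 16691 genes, 0.677% were called higher in this comparison. For each of the 3 genes all dates of α-catenin KO and QCKO had a more negative difference between high and low CHIR than all 3 dates of β-catenin KO. The share of all genes that separate in this way was not counted, so nothing is read from this separation. The call on Eya1 was lost in 13 of 24 alternatives, those on Osr1 and Wt1 in 0 of 24, counting the one that keeps a single β-catenin KO library at each CHIR level and assumes its spread. This comparison was added after seeing the data, since it uses no CTRL library.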

How the results depend on the processing

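Of 711 values of the 45 member comparisons recomputed under an alternative, 653 counted as unchanged, and 37 changed sign, 0 of them in a comparison that was called. Unchanged means the same direction and the same side of the threshold. For high against low CHIR in CTRL, which was not tested, it means the same direction and a move smaller than the combined SD of the groups. The choices to leave out whole dates of β-catenin KO and to set its response against the mean response of α-catenin KO and QCKO were made after seeing the data. The cause of a change was not tested. Where a setting leaves a group with 1 library, as replicate 1 alone does, that library is assumed to vary like the other groups, values with whole β-catenin KO dates left out are not matched by date, and comparisons of the 3 genes with CTRL are descriptions. Single high CHIR libraries of Osr1 hold as few as 26 reads, and with 2 or 3 libraries a group small differences could not be detected.

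For Osr1, high against low CHIR in β-catenin KO was 0.33 with replicate 1 alone and -0.66 to 0.054 without single libraries. Its response in QCKO minus CTRL was -0.074 with edgeR, -0.081 with DESeq2 and -0.33 to 0.23 without single libraries, and in α-catenin KO minus CTRL -0.21 to 0.73. Against CTRL in high CHIR, Osr1 in α-catenin KO was -0.0086 with edgeR, -0.019 with DESeq2 and -0.44 to 0.49 without single libraries, and in QCKO -0.0071 with quantile normalization, -0.072 with edgeR, -0.064 with DESeq2 and -0.32 to 0.24. In low CHIR it was -0.021 in QCKO with quantile normalization, -0.20 to 0.22 without single libraries, and 0.17 in β-catenin KO with replicate 1 alone.

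For Eya1, the response in β-catenin KO minus the mean of α-catenin KO and QCKO was 1.92 without replicate 1, 2.0 with it alone and 1.73 to 2.16 without single libraries, and 13 of 24 alternatives lost its call. The response in β-catenin KO minus CTRL, a description, was 1.29 to 1.95 without single libraries, and in α-catenin KO minus CTRL -0.61 to 0.25. Against CTRL in high CHIR it was 1.29 in β-catenin KO with only the groups compared, 1.07 without replicate 1 and 0.98 to 1.64 without single libraries, and -0.55 to 0.31 in α-catenin KO. In low CHIR it was -0.085 to 0.21 in α-catenin KO, 0.032 in QCKO with quantile normalization and -0.12 to 0.12 without single libraries, and 0.059 in β-catenin KO with replicate 1 alone. For Wt1, the response in β-catenin KO minus CTRL was 1.80 with replicate 1 alone, and against CTRL in high CHIR it was -0.23 to 0.010 in α-catenin KO and -0.35 to 0.16 in QCKO without single libraries.

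With the label date as a block, the response of Eya1 in β-catenin KO minus CTRL stayed at 1.60, and the near-0 values of Osr1 in α-catenin KO in high CHIR (-0.050) and of Eya1 in QCKO in low CHIR (0.19) changed sign; no call on the 3 genes changed in the comparisons tested. Without single libraries 281 to 496 genes in place of 725 were called for high against low CHIR in α-catenin KO and 368 to 399 in place of 814 in QCKO, and for β-catenin KO against the mean of these 494 to 942 in place of 962 in high CHIR and 75 to 248 in place of 169 for the response. With the block the numbers of all genes called rose from 725 to 1186 in α-catenin KO and from 814 to 1278 in QCKO for high against low CHIR, from 3 to 40 in β-catenin KO, from 112 to 400 and 169 to 522 for the response in β-catenin KO minus CTRL and minus the mean of α-catenin KO and QCKO, from 1757 to 2881 and 11 to 74 for β-catenin KO against CTRL in high and low CHIR, and from 962 to 1798 against the mean of α-catenin KO and QCKO. For high against low CHIR, DESeq2 called 1095 in α-catenin KO, 1229 in QCKO and 51 in β-catenin KO, and it called 1537 and 407 (962 and 169 in limma) for β-catenin KO against the mean of α-catenin KO and QCKO in high CHIR and for the response. With only the groups compared 1855 in place of 814 were called in QCKO, 240 in place of 1757 for β-catenin KO against CTRL in high CHIR and 0 in place of 3 within β-catenin KO, and with β-catenin KO replicate 1 alone 88 in place of 169.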
